A study of Bos taurus with 31 samples.

Results

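The genes described here serve protein folding in the endoplasmic reticulum (ER) and the secretory route that begins there. They were chosen by symbol, as the entries of the raw count table whose gene symbol is 1 of 38 listed names. All 38 were found, each with 1 entry among the 24616 genes of the table, and all 38 passed the minimum of 20 reads in total over the cows, as 15916 genes did. The list comprised 9 chaperones of the HSP70 and HSP90 systems and their helpers, 8 disulphide isomerases, lectin chaperones and a prolyl isomerase, 5 parts of the translocon, 11 genes for the disposal of misfolded proteins, and 5 stress sensors and transcription factors. Members were taken by name.

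Liver of lactating German Holstein cows was sampled after 16 weeks of feeding and its polyadenylated RNA was sequenced. The study asked whether glyphosate residues in feed and a varied supply of nutrients alter the liver. CONHC (8 cows) received a control total mixed ration with 60% concentrate feed on a dry matter basis and CONLC (8 cows) the control ration with 30%. GLYHC (8 cows) and GLYLC (7 cows) received the 60% and the 30% ration with glyphosate residues, which came from straw, wheat and peas of crops sprayed with a glyphosate formulation before harvest. The contamination is therefore that of treated crops rather than of the pure compound. The paper reports that control cows were also minimally exposed through background residues, and that GLYHC cows took in more glyphosate than GLYLC cows. Each library came from a separate cow, and HC and LC below denote the high and the low concentrate feed proportion (CFP).

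Hepatocytes export most plasma proteins, so their ER carries a heavy folding load. New chains enter through the SEC61 channel, are bound by the HSP70 chaperone HSPA5 (BiP), receive disulphide bonds and sugars, and are retained or removed from the ER when they fail to fold. The membrane sensors ERN1 (IRE1), ATF6 and EIF2AK3 (PERK) are held inactive by HSPA5, and their release sets off the unfolded protein response, which raises the genes of chaperones and disposal factors. ERN1 acts through splicing of XBP1 messenger RNA, which counts per gene do not show.

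Between 11675775 and 36675542 reads per cow were counted in genes, and the 38 genes together took 0.4% to 1.08% of them. Values below are CPM, reads of a gene scaled to 1 common library total with TMM factors. They depend on gene length and are compared between cows, never between genes. One library stood apart. GLYLC cow 912 held intestinal epithelium transcripts at a summed 260.3 CPM (FABP2, VIL1 and MUC13), where no other cow exceeded 2.005 CPM. FABP2 stood at 0 reads in 24 of the 31 cows and MUC13 in 25. The same library had the lowest sum of 7 hepatocyte markers (104000 CPM, against 124300 to 209100 CPM in the other cows). ALB, TTR and SERPINA1 were present in every cow. ALB and TTR were lowest in cow 912 (42900 and 2416 CPM), whereas APOA1 of the same list was highest there (714.1 CPM, against 133.9 to 631.6 CPM). This library also had the highest sum of 4 plasma cell markers (161.3 CPM, against 7.479 to 64.19 CPM), of which JCHAIN took 157.6 CPM. The other plasma cell markers MZB1 (2.301 CPM), POU2AF1 (0.8034 CPM) and CD79A (0.6573 CPM) lay within the range of the other cows. Plasma cells and gut epithelium also secrete much protein. The part of these cells in the values of cow 912 was not tested, so results are given with and without this cow.

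Of the 38 genes, HSPA5 and MANF were called lower in HC than in LC cows when both treatments were fitted together with treatment as a covariate, and no gene was called higher. To be called, a gene needed an adjusted p under 0.1 besides an unadjusted p under 0.05 (edgeR quasi-likelihood test, Benjamini-Hochberg over all tested genes). This was 2 of 38 members where 0.773% of all genes were called lower and 1.45% were called in either direction. At an unadjusted p under 0.05 alone, 9 members were lower and 0 higher, or 23.7% of them, against 7.81% of all genes lower and 13.7% in either direction. The 9 were HSPA5, MANF, DNAJB11, HSP90B1, HERPUD1, SEC61G, HYOU1, CRELD2 and VCP. The median log2 fold change was -0.10 over the members and -0.01 over all genes. Without cow 912 both medians were near 0 (-0.02 over the members and -0.01 over all genes), 0 members were called, and at an unadjusted p under 0.05 there were 6 lower and 1 higher (ERN1). These 6 made up 15.8% of the members, where 6.32% of all genes were lower and 11.9% passed in either direction. In bulk tissue, fewer cells of a type and less RNA per cell cannot be told apart.

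**Figure D1:**
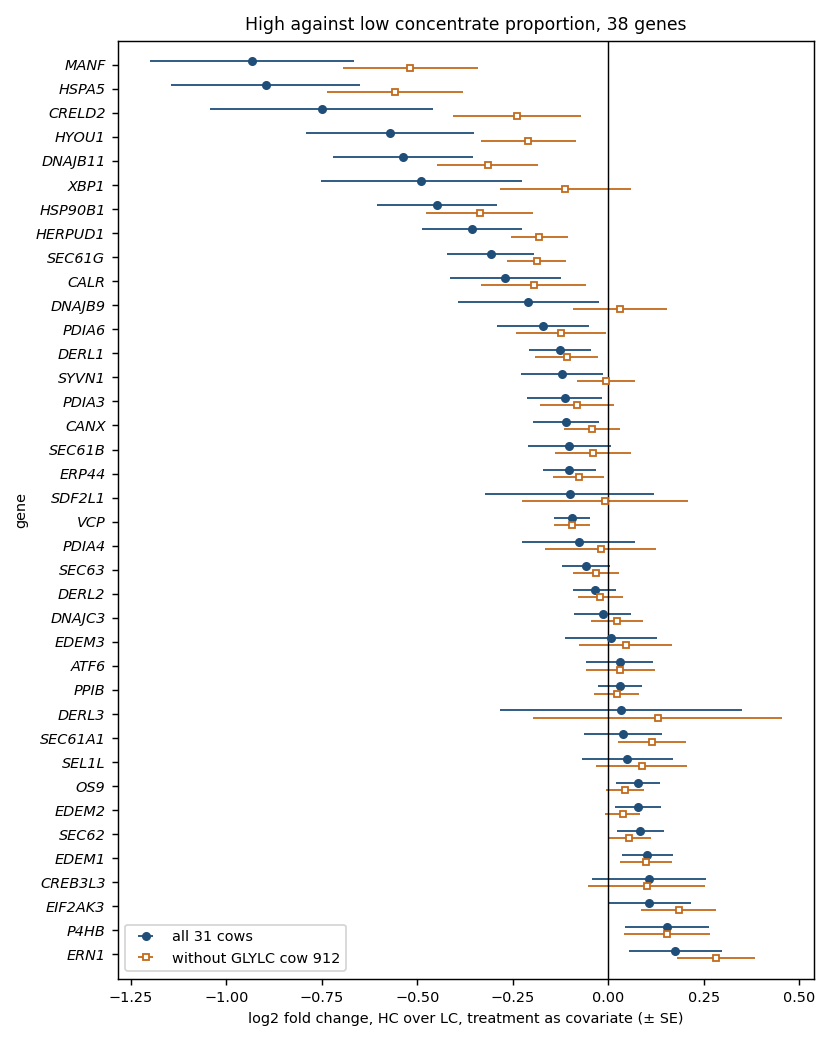
Log2 fold change of HC over LC with treatment as a covariate (x axis) for the 38 genes (y axis, sorted), with bars of 1 SE. Filled circles are the fit on all 31 cows and open squares the fit without GLYLC cow 912; MANF and HSPA5 lie farthest to the left in both, at -0.93 and -0.90 with all cows and at -0.52 and -0.56 without cow 912.

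Of the 9 genes with a p under 0.05, 6 were chaperones. All 9 chaperones had a negative log2 fold change with a median of -0.54, where 54.0% of all genes were below 0. Without cow 912, 7 of the 9 were below 0, the median was -0.24 and 4 rather than 6 had a p under 0.05. HSPA5 (ENSBTAG00000007662), the HSP70 chaperone of the ER lumen, lay at 81.62, 129.5 and 196.8 CPM (lowest, median and highest cow) in CONHC and at 101.1, 186.7 and 388.0 CPM in CONLC. In GLYHC it lay at 73.96, 104.3 and 161.0 CPM and in GLYLC at 107.0, 168.2 and 852.0 CPM. Of the 16 HC cows, 15 were below the median of the LC cows and 4 were below the lowest LC cow, while 5 of the 15 LC cows were above every HC cow, so the groups overlapped. The log2 fold change of HSPA5 was -0.90 ± 0.25 (SE; adjusted p = 0.0918, edgeR), which corresponded to a mean of 208.4 ± 102.9 CPM in CONLC (SD, n = 8) against 130.9 ± 38.74 CPM in CONHC (n = 8), and of 255.0 ± 266.9 CPM in GLYLC (n = 7) against 116.0 ± 32.01 CPM in GLYHC (n = 8). The highest value, 852.0 CPM, was that of cow 912. Without this cow GLYLC had a mean of 155.3 ± 48.17 CPM (n = 6) and its highest cow stood at 227.0 CPM. The log2 fold change was then -0.56 ± 0.18 with adjusted p = 0.166 (edgeR), and HSPA5 was no longer called.

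MANF (ENSBTAG00000031797), a small secreted protein that binds HSPA5, followed the same order. Its lowest, median and highest cows were at 10.78, 17.7 and 27.3 CPM in CONHC and at 14.04, 30.74 and 60.28 CPM in CONLC. They were at 11.45, 15.16 and 23.81 CPM in GLYHC and at 13.46, 24.46 and 140.3 CPM in GLYLC. All 8 CONHC cows were below the CONLC median and all 8 GLYHC cows below the GLYLC median, and the ranges overlapped in both pairs. The log2 fold change of MANF over both treatments was -0.93 ± 0.27 (adjusted p = 0.0973, edgeR). It was -0.52 ± 0.18 without cow 912 (adjusted p = 0.200), which ended the call. Across the alternative settings the adjusted p ran from 0.0258 to 0.166 for HSPA5 and from 0.0316 to 0.200 for MANF. DESeq2 called both with all cows, where it called 434 genes in all against 231 with edgeR. Without cow 912 it called HSPA5 alone of the members and 369 genes in all.

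**Figure D2:**
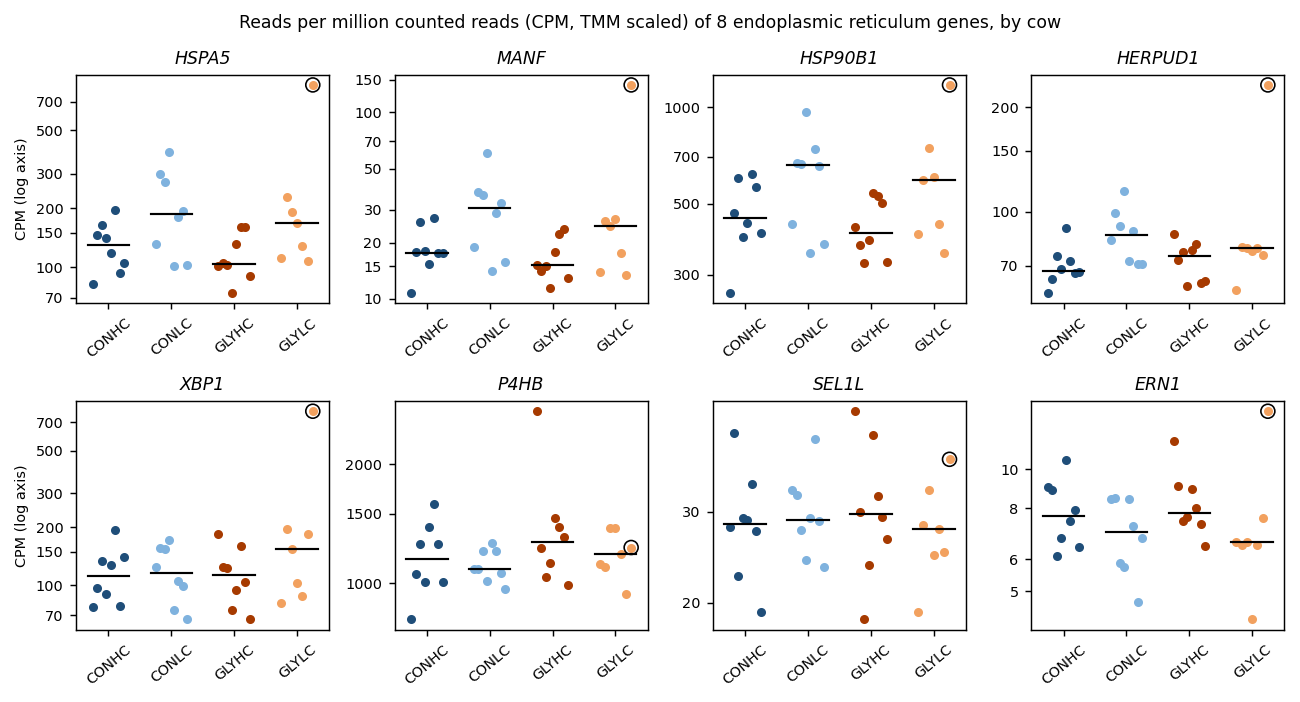
CPM (y axis, log scale) of 8 genes in each cow of the 4 feeding groups (x axis), with the group median as a black bar and GLYLC cow 912 ringed. HSPA5, MANF and HSP90B1 have lower medians in both HC groups than in both LC groups, the ranges overlap for every gene, and cow 912 stands at 852.0 CPM for HSPA5 and 800.2 CPM for XBP1.

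HSP90B1 (GRP94), the HSP90 chaperone of the ER, had 263.2, 452.2 and 617.6 CPM as its lowest, median and highest cow in CONHC and 349.4, 659.6 and 964.8 CPM in CONLC. GLYHC stood at 327.0, 404.4 and 538.3 CPM and GLYLC at 351.5, 594.7 and 1175.0 CPM. It lay below the LC median in 15 of 16 HC cows, with 7 LC cows above all HC cows, and its log2 fold change of -0.45 ± 0.16 was not called (adjusted p = 0.178). Without cow 912 it was -0.34 ± 0.14.

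DNAJB11, a J-domain partner of HSPA5, was the gene in which every HC cow, 16 of 16, lay below the LC median. Its group medians were 17.14 CPM in CONHC, 23.38 CPM in CONLC, 16.14 CPM in GLYHC and 21.18 CPM in GLYLC, with cows from 9.701 to 66.97 CPM. HC over LC gave -0.54 ± 0.18 on the log2 scale (adjusted p = 0.169) and -0.32 ± 0.13 without cow 912. CRELD2, an ER folding helper, had medians of 4.236, 4.912, 3.974 and 4.156 CPM in CONHC, CONLC, GLYHC and GLYLC, and its highest cow, 912, was at 40.61 CPM. Its log2 fold change of -0.75 ± 0.29 (adjusted p = 0.234) became -0.24 ± 0.17 without that cow (adjusted p = 0.627).

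HYOU1, the large HSP70 that exchanges nucleotide on HSPA5, ranged from 10.33 to 27.25 CPM in all cows other than 912, which had 84.94 CPM. Its log2 fold change was -0.57 ± 0.22 (adjusted p = 0.227) and -0.21 ± 0.12 without cow 912. The remaining 3 chaperones were DNAJB9 and DNAJC3, both J-domain proteins, and SDF2L1, a partner of DNAJB11, and none of them had a p under 0.05. DNAJB9 had medians of 58.75, 61.94, 62.79 and 63.82 CPM in CONHC, CONLC, GLYHC and GLYLC, and its log2 fold change of -0.21 ± 0.18 changed to 0.03 without cow 912. SDF2L1 had medians of 7.993, 8.62, 8.507 and 8.342 CPM in the same order (log2 fold change -0.10 ± 0.22), although single cows spread from 2.756 to 19.04 CPM. DNAJC3 was at -0.02 ± 0.07.

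The 8 isomerases and lectins differed less, with 6 negative log2 fold changes, a median of -0.11 and 0 with p under 0.05. CALR (calreticulin), a soluble lectin chaperone, had medians of 401.6 CPM in CONHC, 534.5 CPM in CONLC, 364.7 CPM in GLYHC and 435.0 CPM in GLYLC. Cows ran from 228.0 to 796.4 CPM, and its log2 fold change was -0.27 ± 0.15 (adjusted p = 0.417). CANX (calnexin), the membrane lectin of the same cycle, had medians of 228.9, 251.7, 247.9 and 223.1 CPM in CONHC, CONLC, GLYHC and GLYLC and a log2 fold change of -0.11 ± 0.09.

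P4HB, the abundant protein disulphide isomerase, had medians of 1154.0 CPM in CONHC, 1088.0 CPM in CONLC, 1271.0 CPM in GLYHC and 1188.0 CPM in GLYLC. A log2 fold change of 0.15 ± 0.11 was measured, so its sign was opposite to that of HSPA5. PDIA4 (ERp72), another disulphide isomerase, had medians of 221.9, 256.5, 223.3 and 219.5 CPM in CONHC, CONLC, GLYHC and GLYLC and a log2 fold change of -0.08 ± 0.15. The other disulphide isomerases PDIA3 and PDIA6, the thioredoxin-fold retention factor ERP44 and the prolyl isomerase PPIB lay between -0.17 (PDIA6) and 0.03 (PPIB).

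Among the 5 translocon genes SEC61G, the small gamma subunit of the channel, was lower at an unadjusted p under 0.05. It had medians of 25.28 CPM in CONHC, 27.16 CPM in CONLC, 25.48 CPM in GLYHC and 31.81 CPM in GLYLC. In the GLY groups 6 of 7 LC cows lay above every HC cow, and in the CON groups 1 of 8 did. The log2 fold change over both treatments was -0.31 ± 0.11 (adjusted p = 0.206), and -0.19 ± 0.08 without cow 912 (adjusted p = 0.322).

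The channel subunit SEC61A1 had medians of 62.28, 59.88, 67.78 and 63.25 CPM in CONHC, CONLC, GLYHC and GLYLC (log2 fold change 0.04 ± 0.10), and the beta subunit SEC61B had 63.18, 60.07, 59.9 and 62.4 CPM (-0.10 ± 0.11). SEC62 and SEC63, which work with the channel after translation, had medians of 129.4, 126.5, 122.4 and 129.6 CPM and of 76.49, 72.88, 74.22 and 78.87 CPM. Their log2 fold changes were 0.08 ± 0.06 and -0.06 ± 0.06, and none of these 4 genes had a p under 0.05.

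Disposal genes were spread around 0, with 5 of 11 below it and a median log2 fold change of 0.01. HERPUD1, which organises the disposal complex in the ER membrane, was the exception among them in size. Its lowest, median and highest cows were at 58.42, 67.64 and 89.71 CPM in CONHC and 70.67, 85.5 and 114.5 CPM in CONLC, and at 61.01, 74.54 and 86.24 CPM in GLYHC and 59.68, 78.58 and 232.0 CPM in GLYLC. In the CON groups 5 of 8 HC cows were below every LC cow, whereas in the GLY groups 0 of 8 were. On the log2 scale the difference was -0.36 ± 0.13 (adjusted p = 0.201) and -0.18 ± 0.07 without cow 912 (adjusted p = 0.319).

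VCP, the ATPase that pulls substrates out of the membrane, had the smallest spread over cows of all 38 genes (coefficient of variation 8.5%) and a log2 fold change of -0.10 ± 0.05 at an adjusted p = 0.365. SEL1L, the scaffold of the SYVN1 ubiquitin ligase, had medians of 28.42, 28.96, 29.64 and 27.73 CPM in CONHC, CONLC, GLYHC and GLYLC (0.05 ± 0.12), and SYVN1 had 20.34, 21.22, 20.76 and 22.52 CPM (-0.12 ± 0.11). DERL3, a derlin of the same membrane complex, was the scarcest member with 7 reads in its lowest cow. Its medians were 0.9926, 1.449, 1.315 and 1.052 CPM and its log2 fold change was 0.03 ± 0.32. The other derlins DERL1 and DERL2, the mannose-trimming EDEM1, EDEM2 and EDEM3, and OS9, a lectin of the ligase complex, lay between -0.13 (DERL1) and 0.10 (EDEM1).

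Of the 5 sensors and transcription factors, 4 had positive log2 fold changes and 0 had a p under 0.05 with all cows. ERN1 had medians of 7.68 CPM in CONHC, 7.002 CPM in CONLC, 7.813 CPM in GLYHC and 6.617 CPM in GLYLC. Its log2 fold change was 0.17 ± 0.12 with all cows (adjusted p = 0.566) and 0.28 ± 0.10 without cow 912, where its unadjusted p was under 0.05 and its adjusted p = 0.232. EIF2AK3 had medians of 21.96, 17.88, 19.2 and 20.08 CPM (0.11 ± 0.11), and ATF6 had 26.26, 24.67, 22.26 and 24.1 CPM (0.03 ± 0.09). CREB3L3, a liver transcription factor kept in the ER membrane until cleaved, had 113.8, 108.5, 148.1 and 129.2 CPM (0.11 ± 0.15).

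XBP1, the factor that drives the chaperone and translocation programme, had 1 cow far from the rest. Its lowest, median and highest cows were at 77.22, 112.2 and 194.8 CPM in CONHC and 67.31, 115.5 and 171.7 CPM in CONLC, and at 66.91, 113.7 and 184.2 CPM in GLYHC and 81.53, 155.2 and 800.2 CPM in GLYLC. Cow 912, at 800.2 CPM, lay above the next of the 31 cows at 197.1 CPM, and the 4 groups overlapped. HC over LC gave -0.49 ± 0.26 on the log2 scale with all cows (adjusted p = 0.416) and -0.11 ± 0.17 without cow 912.

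Within the control diet no member was called between CONHC and CONLC (edgeR and DESeq2 both 0, where edgeR called 0.0% of all genes), and edgeR gave 0 members with an unadjusted p under 0.05, against 5.96% of all genes. HSPA5 had the smallest p of the members, with a log2 fold change of -0.67 ± 0.34 (adjusted p = 0.835). MANF followed with -0.70 ± 0.37, HSP90B1 with -0.37 ± 0.22, SEC62 with 0.14 ± 0.09 and DNAJB11 with -0.41 ± 0.26. Cow 912 was in neither group but entered the shared estimate of the spread. Without it these fold changes stayed at -0.67 for HSPA5 and -0.70 for MANF while their SEs fell to 0.24 each, and 5 members were lower at an unadjusted p under 0.05 (HERPUD1, MANF, HSPA5, DNAJB11 and HYOU1), with a smallest adjusted p of 0.470. The share of all genes at that threshold was then 7.16%.

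Within the glyphosate diet no member was called between GLYHC and GLYLC either, with 0 from edgeR and 0 from DESeq2, where edgeR called 0.201% of all genes. At an unadjusted p under 0.05, 9 members were lower in GLYHC, or 23.7%, against 7.45% of all genes lower and 12.5% in either direction. The smallest p values belonged to HSPA5 (-1.14 ± 0.36, adjusted p = 0.199), SEC61G (-0.49 ± 0.16), MANF (-1.18 ± 0.38), CRELD2 (-1.18 ± 0.41) and XBP1 (-0.98 ± 0.36). DNAJB11, HYOU1, HSP90B1 and HERPUD1 completed the 9. Without cow 912 the 9 became 1 lower, SEC61G at -0.25 ± 0.12, and 1 higher, ERN1 at 0.40 ± 0.15. At that threshold 8.37% of all genes passed in either direction in this fit, and HSPA5 was at -0.43 ± 0.26 (adjusted p = 0.684, edgeR).

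The difference between the CFP effects of the diets was tested as an interaction of GLY with CFP. No member was called (0 from edgeR, 0 from DESeq2, and edgeR called 0.0% of all genes), and 0 members had an unadjusted p under 0.05 where 4.21% of all genes had. XBP1 had the smallest p, with an interaction of -0.95 ± 0.50 on the log2 scale (adjusted p = 0.999), followed by DERL3 (1.06 ± 0.60), SEC61B (-0.37 ± 0.21), SEC61G (-0.36 ± 0.22) and SEC63 (-0.18 ± 0.12). For HSPA5 and MANF the sign of the interaction turned with cow 912, from -0.47 and -0.48 with it to 0.24 and 0.39 without it, all within 2 SE of 0. No difference of the CFP effect between diets was therefore detectable for these chaperones. Without cow 912, DERL3 was at 1.34 ± 0.60 (adjusted p rounding to 1).

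Glyphosate residues were compared with control within each CFP and over both. Between GLYHC and CONHC 0 members were called and 0 had an unadjusted p under 0.05 (edgeR), DESeq2 called 0, and edgeR called 0.0% of all genes with 2.92% at the unadjusted threshold. DERL3 had the smallest p (log2 fold change 0.76 ± 0.42, adjusted p rounding to 1), then P4HB (0.27 ± 0.15), CREB3L3 (0.33 ± 0.21), SEC61A1 (0.16 ± 0.14) and PDIA4 (0.22 ± 0.21). GLYHC cow 32 was the highest of all 31 cows for DERL3, P4HB and PDIA4.

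Between GLYLC and CONLC 0 members were called by edgeR, which called 0.0628% of all genes, and 0 by DESeq2. XBP1 alone had an unadjusted p under 0.05, where 5.65% of all genes had, with a log2 fold change of 0.95 ± 0.36 (adjusted p = 0.709). SEC61B (0.30 ± 0.15), CRELD2 (0.78 ± 0.40), SEC61G (0.30 ± 0.16) and DNAJB9 (0.44 ± 0.26) came next. Across the alternative settings SEC61B ran from 0.17 to 0.38 and SEC61G from 0.049 to 0.38. The values of XBP1, CRELD2 and DNAJB9 rested on cow 912, and without it they were at 0.18 ± 0.25, -0.27 and -0.049. In that fit MANF (-0.57 ± 0.26) and HYOU1 (-0.39 ± 0.18) were lower in GLYLC at the unadjusted threshold, with adjusted p rounding to 1. There 3.07% of all genes passed that threshold in either direction. With all cows the log2 fold change of MANF was 0.30 ± 0.38.

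Over both CFP, 0 members were called between GLY and CON by edgeR, which called 0.0% of all genes, and 0 by DESeq2, and 0 had an unadjusted p under 0.05 where 3.92% of all genes had. SEC61A1 (0.19 ± 0.10), SYVN1 (0.19 ± 0.11), XBP1 (0.45 ± 0.26), P4HB (0.19 ± 0.11) and CREB3L3 (0.21 ± 0.15) had the smallest p. All 5 were positive, and 31 of the 38 members had a positive log2 fold change, where 48.5% of all genes were below 0; without cow 912, 18 of 38 had a negative one. The comparisons within a CFP share their cows with those between CFP and are given side by side for that reason.

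Differences between the feeding group means made up a median of 9.31% of the variance of log2 CPM between cows over the 38 genes. Over all tested genes the median was 8.77%. Without cow 912 the order was the other way round, with 7.98% over the members and 8.5% over all tested genes. Group means take up part of the variance even where groups do not differ. The share expected in that case was not computed, so no effect of feeding is read from these medians. With all cows the largest shares were those of HSPA5 and SEC61G, both 22.4%, followed by MANF with 19.6%, HSP90B1 with 17.7% and VCP with 17.2%. ATF6 (1.34%), SDF2L1 (1.82%), EDEM3 (2.04%) and SEL1L (2.38%) had the smallest. Without cow 912 the largest were those of MANF (27.6%), HERPUD1 (26.6%), HSPA5 (25.8%), ERN1 (24.2%) and EDEM2 (22.8%), and SEC61G had 17.1%. The highest cow exceeded the lowest 14.7-fold for CRELD2, 13.0-fold for MANF, 12.45-fold for DERL3, 12.0-fold for XBP1 and 11.5-fold for HSPA5, and 1.38-fold for VCP. Cow 912 was the highest for CRELD2, MANF, XBP1 and HSPA5, which without it spanned 3.87-fold, 5.59-fold, 2.95-fold and 5.25-fold, whereas for DERL3 the highest was GLYHC cow 32 and the span stayed at 12.45-fold.

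**Figure D3:**
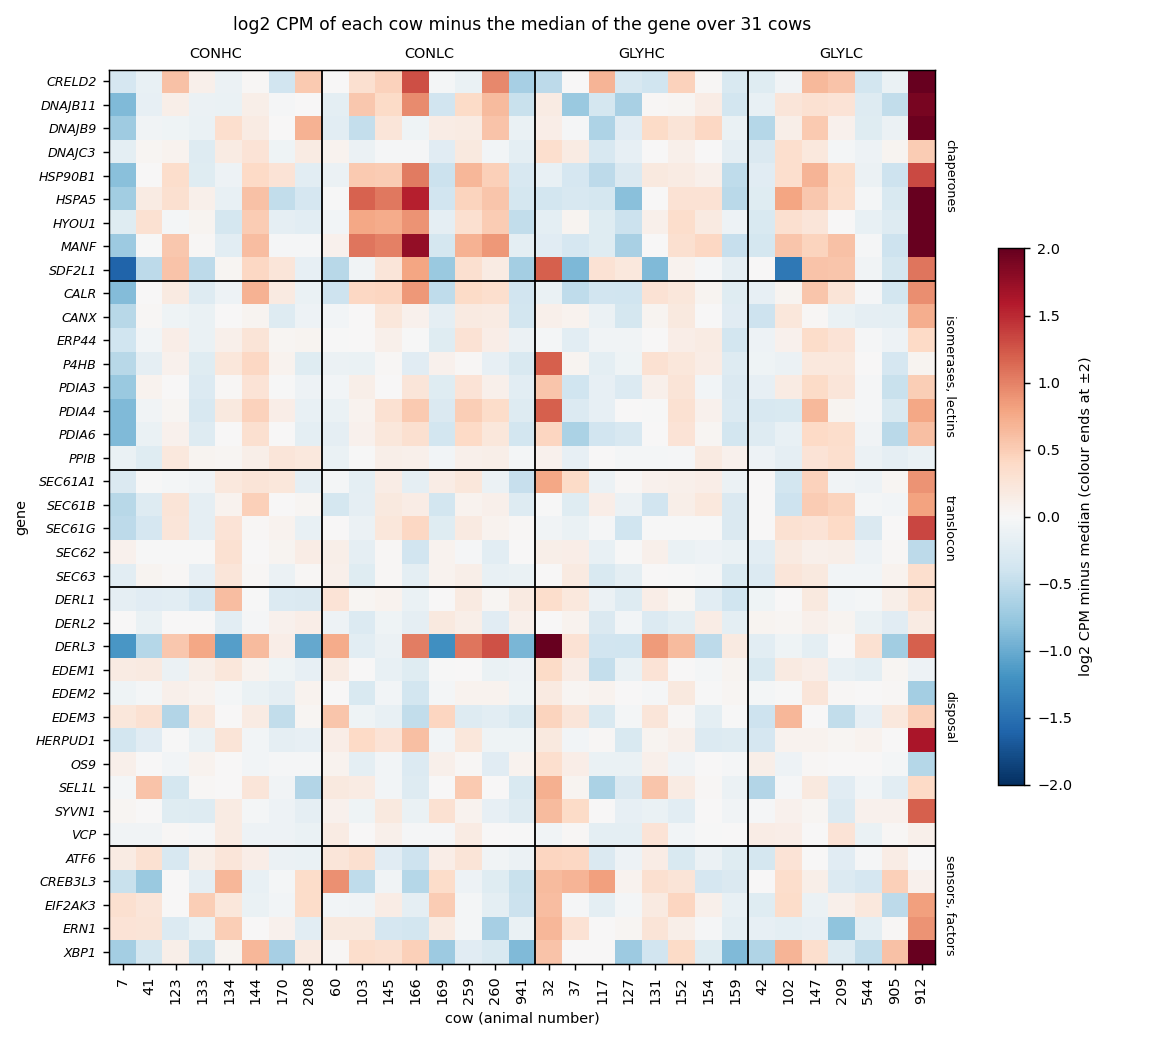
Log2 CPM of each gene (rows, by role) in each cow (columns, by feeding group) minus the median of that gene over the 31 cows, as colour that ends at ±2. The right-most column, GLYLC cow 912, is high for most chaperones and XBP1 and low for OS9, EDEM2 and SEC62, whereas GLYHC cow 32 is high for P4HB, PDIA4 and DERL3 and not for HSPA5.

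A few animals held most of the extreme values, as the map of deviations shows. GLYLC cow 912 was highest in 21 of 38 genes and lowest in 3 (OS9, EDEM2 and SEC62). GLYHC cow 32 was highest in 9, which were P4HB at 2722 CPM, PDIA4 at 514.0 CPM, DERL3 at 5.95 CPM, SDF2L1 at 19.04 CPM, PDIA3, SEL1L, OS9, EDEM1 and ATF6. In that cow HSPA5 was at 101.6 CPM, below the median of 131.5 CPM over all cows. CONHC cow 7 was lowest in 15 genes, with HSP90B1 at 263.2 CPM and CALR at 228.0 CPM. In CONLC cow 166, the second highest for HSPA5 with 388.0 CPM, HSP90B1 stood at 964.8 CPM and P4HB at 1015 CPM.

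Members were then compared with HSPA5 across the 31 cows as deviations from the group means, so that the feeding effect did not enter. Of the other 37 genes, 22 had a correlation with an adjusted p under 0.05 (2-sided permutation test with 100000 resamples within groups, adjusted over the 37), 19 of them positive. Without cow 912 there were 17, with 16 positive. The values of a cow come from 1 library and share its depth and scaling. Over all 15915 other tested genes the median r with HSPA5 was 0.02 and the 95th percentile 0.49, which 17 members exceeded (16 members and 0.39 without cow 912).

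MANF had the closest relation (r = 0.97, Spearman's rho 0.93, permutation p = 1e-05, the smallest these resamples can give, adjusted p = 6.17e-05), with r = 0.95 without cow 912 and 0.94 without the cows farthest from the median, 912 and 166. HYOU1 followed with r = 0.95 (rho 0.93, permutation adjusted p = 6.17e-05) and 0.92 without both. Next came DNAJB11 (r = 0.90, rho 0.81), HSP90B1 (0.86, 0.83), CANX (0.85, 0.79) and CALR (0.82, 0.81), each with a permutation p of 1e-05 and an adjusted p of 6.17e-05. Without cows 912 and 166 these 4 were at 0.79, 0.80, 0.79 and 0.80. XBP1 (r = 0.81, rho 0.70, permutation adjusted p = 0.000185) fell to 0.62. CRELD2 and HERPUD1, at 0.80 each, were at 0.52 without those cows.

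The disulphide isomerases had lower correlations with HSPA5, and PDIA6, PDIA3 and PDIA4 had r = 0.67, 0.63 and 0.56 (adjusted permutation p = 0.000159, 0.000432 and 0.00235). P4HB (r = 0.20, rho 0.28, permutation p = 0.173) did not pass. They followed each other more closely than they followed HSPA5. Over the 30 cows without 912, PDIA4 had r = 0.90 with PDIA6, 0.88 with PDIA3 and 0.80 with P4HB, given here as description. Such values were not limited to pairs of isomerases. Over the same cows PDIA6 had r = 0.87 with DNAJB11, 0.86 with CALR and 0.85 with HSP90B1, and PDIA4 had 0.82 with SDF2L1.

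OS9 was the member that ran against HSPA5 (r = -0.71, rho -0.56, permutation adjusted p = 0.00296), at r = -0.48 without cow 912 (adjusted permutation p = 0.0411) and -0.39 without cows 912 and 166. Its rho without cow 912 was -0.45 and did not pass (adjusted permutation p = 0.0615). EDEM2 (-0.59) and SEC62 (-0.58) had negative values that rested on cow 912, at -0.19 and -0.32 without it. The sensors ERN1 (0.22), ATF6 (-0.07) and EIF2AK3 (0.39) and the factor CREB3L3 (-0.21) did not pass, with adjusted permutation p of 0.407, 0.758, 0.125 and 0.323. ERN1 and ATF6 instead had r = 0.72 with each other, and SEL1L had 0.82 with EDEM1 and 0.71 with ATF6, again over 30 cows and as description.

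**Figure D4:**
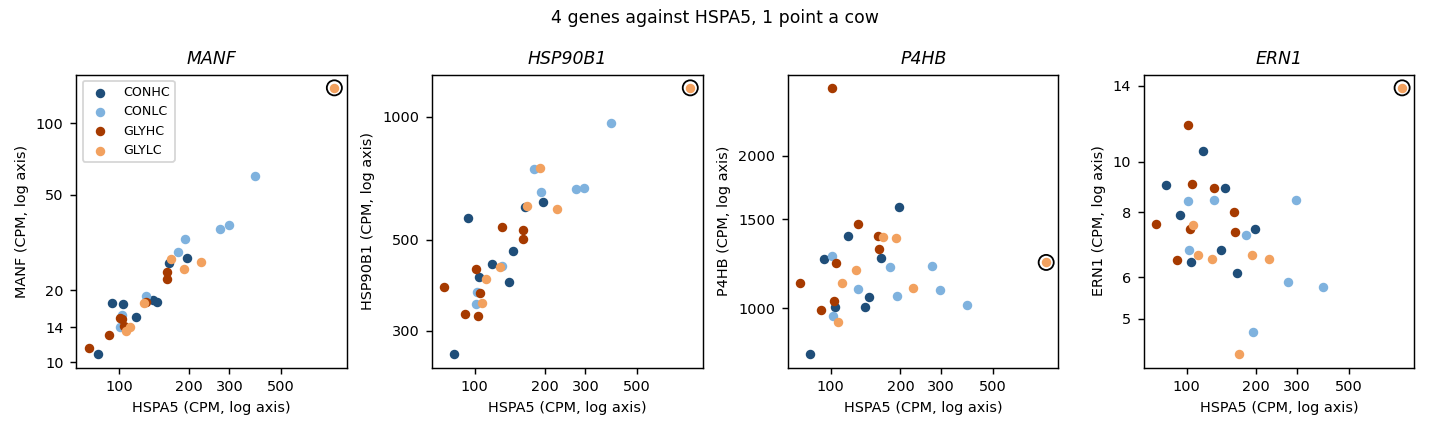
CPM of MANF, HSP90B1, P4HB and ERN1 (y axes, log scale) against CPM of HSPA5 (x axis, log scale), 1 point a cow, coloured by feeding group, with GLYLC cow 912 ringed. MANF and HSP90B1 rise along with HSPA5 (r of group-centred log2 values 0.97 and 0.86), P4HB (0.20) and ERN1 (0.22) do not.

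Pairs of members within a role had median correlations over the 30 cows of 0.69 for isomerases and lectins, 0.51 for chaperones, 0.33 for the translocon, 0.26 for sensors and factors and 0.24 for disposal. The median over all 703 pairs was 0.28.

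Outside the 38 genes, 81 further ER genes were tested for HC against LC with treatment as a covariate, of which 1 was called lower, 7 were lower and 3 higher at an unadjusted p under 0.05, and the median log2 fold change was -0.04. The 10 genes with a p under 0.05 were 12.3% of the 81, against 13.7% of all genes, and 1.45% of all genes were called. Without cow 912 there were 4 lower and 4 higher at that threshold, 1 called lower and a median of -0.02. The called gene was SELENOK, a selenoprotein of the ER membrane, with medians of 22.35, 22.42, 19.01 and 26.54 CPM in CONHC, CONLC, GLYHC and GLYLC. Its log2 fold change was -0.35 ± 0.10 (adjusted p = 0.0958, edgeR) and -0.25 ± 0.07 without cow 912 (adjusted p = 0.0964). ATF4, the transcription factor downstream of EIF2AK3, had -0.38 ± 0.13 (adjusted p = 0.161), and the cargo receptor LMAN2 had 0.22 ± 0.08 (adjusted p = 0.187). Within CON the smallest p values were those of TXNDC12 (0.21 ± 0.06, adjusted p = 0.428), TMX3 (0.23 ± 0.11) and ERO1B (0.21 ± 0.11), all redox enzymes. Within GLY they were those of SELENOK (-0.58 ± 0.13, adjusted p = 0.0888, called), the signal peptidase subunit SPCS2 (-0.28 ± 0.10) and ATF4 (-0.52 ± 0.18). The call of SELENOK within GLY was lost without cow 912 (-0.38 ± 0.09, adjusted p = 0.280). TXNDC12 and SELENOK are in lists the study drew from these cows, so their direction is not independent evidence.

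Of 26 tested chaperones of the cytosol and mitochondria, 6 were called lower in HC cows over both treatments (STIP1, HSPA8, CCT8, TCP1, FKBP4 and CCT2). At an unadjusted p under 0.05, 21 of 26 were lower and 0 higher, or 80.8% against 13.7% of all genes, and the median log2 fold change was -0.21. Without cow 912 there were 5 called and 18 lower at that threshold. HSPA8, the constitutive HSP70 of the cytosol, had medians of 430.4 CPM in CONHC, 586.5 CPM in CONLC, 407.2 CPM in GLYHC and 548.3 CPM in GLYLC. Its log2 fold change was -0.49 ± 0.11 (adjusted p = 0.0423, edgeR) and -0.38 ± 0.08 without cow 912 (adjusted p = 0.0398). STIP1, which couples HSP70 to HSP90, had -0.38 ± 0.08 (adjusted p = 0.0275), and the chaperonin subunit CCT8 -0.26 ± 0.06 (adjusted p = 0.0423). Within CON, FKBP4 (-0.35 ± 0.09), STIP1 (-0.39 ± 0.11) and HSPB8 (-0.40 ± 0.13) had the smallest p, and within GLY, CCT2 (-0.41 ± 0.10, adjusted p = 0.0995, called), CCT8 (-0.32 ± 0.08) and AHSA1 (-0.31 ± 0.08). Without cow 912 CCT2 was at -0.32 ± 0.09 within GLY (adjusted p = 0.379) and no gene of the list was called there. HSPA8, STIP1, TCP1, FKBP4 and HSPB8 are in the study's own lists from these cows, and their direction is not independent evidence. These counts describe the list and were not tested against other lists.

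**Figure D5:**
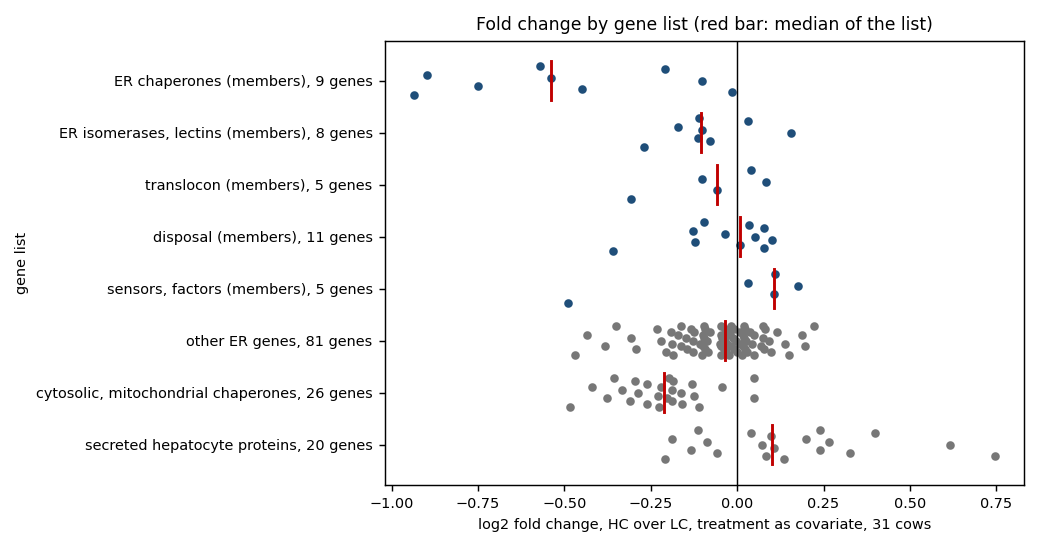
Log2 fold change of HC over LC with treatment as a covariate (x axis) for each gene of the 5 roles of members (blue) and 3 further lists (grey), with the median of each list as a red bar. The medians are -0.54 for ER chaperones and -0.21 for cytosolic and mitochondrial chaperones, and 0.10 for secreted hepatocyte proteins; without GLYLC cow 912, which is in this plot, they are -0.24, -0.18 and 0.059.

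The 20 secreted hepatocyte proteins that use this machinery, such as albumin, transferrin and fibrinogen, had a median log2 fold change of 0.10. At an unadjusted p under 0.05, 5 were higher and 0 lower, where 13.7% of all genes passed in either direction, and 0 were called (edgeR). Without cow 912, 7 were higher and 1 lower, where 11.9% of all genes passed, 0 were called, and the median was 0.059. The summed level of the 20 had medians of 258300 CPM in CONHC, 234200 CPM in CONLC, 228600 CPM in GLYHC and 242900 CPM in GLYLC, with overlapping ranges. Markers of plasma cells, whose ER is dense, had a summed level between 10.3 and 64.19 CPM in HC cows and between 7.479 and 161.3 CPM in LC cows. The highest sum was that of cow 912, where JCHAIN alone took 157.6 CPM. For HC against LC, 0 of 4 tested markers had p under 0.05. Stellate cell and fibroblast markers were lower in HC cows at an unadjusted p under 0.05 in 4 of 4 genes, and in 3 of 4 without cow 912. DCN was called (log2 fold change -0.50 ± 0.10, and -0.51 ± 0.10 without cow 912 with adjusted p = 0.0344, edgeR). Sums of this list were 85.86 to 205.1 CPM in HC and 122.8 to 1611 CPM in LC cows, with medians of 154.6 and 198.8 CPM. The 1611 CPM was that of CONLC cow 103, and the next was CONLC cow 166 at 371.9 CPM. Cow 166 was the highest of CONLC for HSPA5 and MANF. Its hepatocyte marker sum was 134200 CPM, rank 29 from the highest, against 104000 to 209100 CPM in the other cows. Its sum of the 20 secreted proteins was 199600 CPM, rank 30, and its plasma cell marker sum was 29.65 CPM, rank 5. Its macrophage marker sum was 191.3 CPM, rank 23. CD68, a macrophage marker, was called higher with all cows (0.61 ± 0.17) and not without cow 912 (0.55 ± 0.16, adjusted p = 0.137, edgeR), as 1 of 4 on its list, with list sums of 140.0 to 397.8 CPM in HC and 144.1 to 355.1 CPM in LC cows. The part of these cells in the values of HSPA5 and MANF was not tested. This holds for cow 166 too, which was kept in the fits of CONHC against CONLC given above.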

How the data were processed

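The authors trimmed the reads of 31 stranded poly(A) libraries with Trim Galore, aligned them to UMD3.1 with HISAT2 2.1.0 and took counts of uniquely mapped reads for each gene from HTSeq 0.8.0; whether the counting used strand is not given in the sources used here. The deposited raw counts were used as they stand. A second deposited table of DESeq2-normalized counts was not used, and 0 columns of cows were left unmapped. Groups were taken from the labels.

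Genes with at least 20 reads over all cows were tested with edgeR 4.0.16 (R 4.3.3; TMM scaling and the quasi-likelihood F test) on all 31 cows, with 1 mean per feeding group or with treatment and CFP as additive terms. A gene was called at p under 0.05 and Benjamini-Hochberg adjusted p under 0.1. The SE of a log2 fold change was derived from the test, as its absolute value divided by the square root of F. The code was tested on simulated data. CPM were TMM scaled, with a prior count of 2 for correlations. Chi-square per gene of the 105 pairs of cows within groups was 24.5 to 487, so no library was a duplicate of another in its group. Pairs across groups were not compared. Alternatives were RLE and upper-quartile scaling, 2 other filters (at least 1 read, filterByExpr at 10), a robust fit, adjusted p under 0.05, DESeq2 1.42.0, only the compared groups, and each cow left out.

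Members, lists, tests and alternatives were chosen with earlier results of these data known. Values are given for members called, the 5 members with the smallest p in each comparison, and fixed representatives of each role; the others are given by range or count. Of the other lists, called genes and the 3 with the smallest p in each CFP comparison are named. HYOU1, VCP and single cows were named after their values were seen. Hepatocyte, T and NK cell, endothelium, bile duct and red blood cell markers had 0 genes called for HC against LC. Intestinal epithelium had FABP2 and MUC13 called lower, which only cow 912 held above 1 CPM. TNFRSF17, CDX1, CDX2, SOX9 and CCT6A were not analysed here.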

Additional observations from a re-analysis of the deposited data

Results flagged for a closer look

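Of 152 sets of cows (38 genes in 4 groups), 18 had a highest or lowest cow whose gap to its nearest neighbour, relative to the range of log2 CPM, was above Dixon's 95% value; chance gives about 1 in 20. GLYLC cow 912 accounted for 12 of them. It was far above the other GLYLC cows for HSPA5 (852.0 CPM), XBP1 (800.2 CPM), MANF (140.3 CPM), HYOU1 (84.94 CPM), DNAJB11 (66.97 CPM), CRELD2 (40.61 CPM), DNAJB9 (234.2 CPM), HERPUD1 (232.0 CPM), SEC61G (66.2 CPM) and SYVN1 (48.75 CPM). It was far below them for OS9 (333.5 CPM) and EDEM2 (17.75 CPM). GLYHC cow 32 was far above its group for P4HB (2722 CPM), PDIA4 (514.0 CPM) and DERL3 (5.95 CPM), and GLYHC cow 131 for VCP (354.9 CPM). In CONHC, cow 134 was far above the others for DERL1 (30.38 CPM) and cow 7 far below them for DNAJB11 (9.701 CPM).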

How the results depend on the processing

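The call of HSPA5 and MANF over both treatments was near its threshold. The 2 members called became 0 with no filter on low counts, 1 with filterByExpr, 0 with a robust fit and 0 at an adjusted p under 0.05, and were 2 with RLE, with upper-quartile scaling and with DESeq2. DESeq2 without GLYLC cow 912, added after the data were seen, gave 1, where it called 369 genes in all. Leaving out each cow in turn gave 0 to 2. HSPA5 was lost on omission of 17 of the 31 cows, with adjusted p between 0.104 and 0.166 and log2 fold changes between -0.93 and -0.56. MANF was lost on omission of 22, with adjusted p between 0.101 and 0.200. In both the value farthest from the full set was that without cow 912, and the fold changes of both were negative over both treatments under all alternatives. In the other 6 comparisons 0 members were called under every alternative. Members with an unadjusted p under 0.05 numbered 0 to 5 between CONHC and CONLC, 2 to 13 between GLYHC and GLYLC, 1 to 6 between GLYLC and CONLC and 7 to 11 over both treatments when each cow was left out. With only the compared groups they were 4 between CONHC and CONLC (edgeR and DESeq2), and DESeq2 gave 5 between GLYHC and GLYLC.

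Without cow 912 the sign turned in 2 of 38 members for HC against LC over both treatments, in 8 between GLYHC and GLYLC, 14 between GLYLC and CONLC, 13 for GLY against CON and 17 in the interaction, and in 0 between CONHC and CONLC and between GLYHC and CONHC. Between GLYLC and CONLC 0 of 9 chaperones were below 0 with all cows and 7 without cow 912. Over single omissions, between GLYHC and GLYLC the ranges of the log2 fold change were -0.15 to 0.067 for CANX, -0.56 to 0.053 for DNAJB9, -0.25 to 0.079 for SYVN1 and, with the negative end without GLYHC cow 32, -0.17 to 0.19 for PDIA4. Between GLYLC and CONLC they were -0.27 to 0.98 for CRELD2, -0.049 to 0.56 for DNAJB9, -0.42 to 0.49 for HSPA5 and -0.57 to 0.53 for MANF. The interaction ran from -0.66 to 0.24 for HSPA5 and from -0.71 to 0.39 for MANF, and GLY against CON over both CFP from -0.28 to 0.14 and from -0.36 to 0.16. DNAJB9 ran from -0.27 to 0.030 for HC against LC over both treatments. CRELD2 between GLYLC and CONLC was also -0.29 with DESeq2 and -0.27 with DESeq2 on only the compared groups. The cause was not tested beyond the omissions.

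Counts over all genes moved more. For HC against LC over both treatments 231 genes became 134 with no filter, 55 at an adjusted p under 0.05, 434 with DESeq2 and 83 to 404 when each cow was left out. Between GLYHC and GLYLC 32 became 66 with RLE, 0 with only the compared groups and 143 with DESeq2. Between CONHC and CONLC 0 became 27 with DESeq2 and 81 with DESeq2 on only the compared groups, and between GLYLC and CONLC 10 became 0 to 41 over single omissions. The number of Pearson correlations with HSPA5 that passed stayed within 17 to 22, and by Spearman's rho it was 19 with all cows and 16 without cow 912. No paired analysis was possible because the animal numbers are unique to 1 group. Depth limits DERL3 most, with 7 reads in its lowest cow.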
